A study of Mus musculus with 6 samples.

Results

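The Kruppel-like factor (KLF) genes examined here were Klf2, Klf3, Klf4, Klf5, Klf6, Klf9, Klf10, Klf11, Klf13 and Klf15. They were found as all probe sets whose only gene symbol in the platform annotation was one of these 10 names, which gave 31 probe sets of 45037 and 10 genes of 18193. Granulosa cells, which line the ovarian follicle and nourish its oocyte, were collected from mice of a mixed FVB and C57BL/6 background, and total RNA of each sample was hybridised to 1 Affymetrix expression array. The 6 arrays fell into 3 groups of 2. The first group was wild type at day 25 of age. The second was a double knockout (dKO) at day 25, of genotype Foxo1 f/-;Foxo3 f/-; Amhr2-cre, in which the recombinase is expressed from the Amhr2 locus, a gene active in granulosa cells. The third was the same dKO genotype at 2 months of age, and wild-type cells of 2 months were not used here, so genotype and age differ together between the third group and wild type. The labels do not say whether cells of several mice were pooled or whether replicates came from separate mice, so a p-value here speaks only of the spread between arrays, which may be technical.

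KLF proteins are transcription factors that bind GC-rich and CACCC elements through a set of zinc fingers close to the carboxyl end, and they differ in the amino-terminal part, which recruits activators or repressors. Klf2, Klf4, Klf5 and Klf6 are mostly activators, Klf3 is a repressor that binds the CtBP proteins, and Klf9, Klf10, Klf11 and Klf13 bind the Sin3 corepressor. Several members are early response genes, Klf9 and Klf15 are induced by glucocorticoids, and Klf2, Klf4 and Klf6 have been reported downstream of FOXO factors in other cell types.

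The start regions of 4 members are printed. Klf6 had the smallest p between genotypes at day 25, and Klf9 was the member whose start region held the letters GTAAACA. Klf2 and Klf4 were high together in the dKO at 2 months. Each is the stretch of 250 bases before the annotated start of transcription in RefSeq on GRCm38.p6, read 5′ to 3′ on the gene's strand. Capitals mark GTAAACA (a form of the forkhead element), GGGCGG (the GC box bound by KLF and SP factors) and the MEF2 consensus. Each was searched on both strands. The stretches lie at chr13:5861239-5861488 on the plus strand for Klf6, chr19:23140976-23141225 on the plus strand for Klf9, chr8:72318812-72319061 on the plus strand for Klf2 and chr4:55532476-55532725 on the minus strand for Klf4.
Klf6: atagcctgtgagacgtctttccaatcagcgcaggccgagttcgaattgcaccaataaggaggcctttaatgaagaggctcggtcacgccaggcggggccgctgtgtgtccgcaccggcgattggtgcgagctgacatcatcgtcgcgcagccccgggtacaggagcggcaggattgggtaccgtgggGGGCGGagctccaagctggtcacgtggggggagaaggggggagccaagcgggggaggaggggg
Klf9: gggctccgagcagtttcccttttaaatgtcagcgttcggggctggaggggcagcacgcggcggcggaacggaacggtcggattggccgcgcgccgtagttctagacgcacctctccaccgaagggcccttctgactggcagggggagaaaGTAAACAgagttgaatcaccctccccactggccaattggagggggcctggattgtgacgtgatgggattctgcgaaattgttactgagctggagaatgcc
Klf2: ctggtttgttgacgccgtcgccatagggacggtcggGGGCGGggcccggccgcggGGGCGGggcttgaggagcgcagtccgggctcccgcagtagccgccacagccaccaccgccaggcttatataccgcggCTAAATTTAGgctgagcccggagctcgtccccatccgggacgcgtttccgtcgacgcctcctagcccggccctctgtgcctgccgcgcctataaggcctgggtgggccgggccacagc
Klf4: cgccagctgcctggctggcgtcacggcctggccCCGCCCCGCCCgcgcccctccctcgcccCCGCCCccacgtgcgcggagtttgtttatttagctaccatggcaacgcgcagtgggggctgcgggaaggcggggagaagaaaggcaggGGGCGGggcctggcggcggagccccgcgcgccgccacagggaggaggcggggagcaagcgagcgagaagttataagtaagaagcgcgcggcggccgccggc
Sequences were matched for 8 of the 10 genes, all but Klf5 and Klf10. The forkhead letters GTAAACA lay in 1 of the 8 stretches, in Klf9 from base 100 to base 94 before the start. They lay in 3.17% of the 32851 start regions searched. Other forms of the forkhead element were not searched, so the other stretches may hold some. The GC box lay in 7 of 8, against 32.7% of all start regions. The Klf9 stretch held none. The CACCC box, searched as CACCC, lay in 5 of 8 against 52.0%, and the CCAAT box, searched as CCAAT, in 5 of 8 against 33.8%, with 4 CCAAT matches in Klf6. The MEF2 consensus lay in 1 of 8, in Klf2 from base 118 to base 109 before the start, and in 2.92% of all. GC boxes overlapped a CACCC match once in Klf3 and once in Klf13, and no match in the printed stretches overlapped one of another motif. These members were GC-rich, with 59.6% G and C in Klf9 to 78.4% in Klf3, against a median of 52.4% over all start regions. A match describes these letters and does not show binding.

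Intensities are the deposited values on a linear scale, and log2 differences are of intensity plus 1, with standard errors (SE) from limma and p-values adjusted over all 45037 probe sets. Each gene was followed on its probe set of highest mean intensity unless another is named. The targeted gene Foxo1 gave 10319 and 7666 on the wild-type arrays, 904 and 2291 in the dKO at day 25 and 126 and 343 in the dKO at 2 months, while Foxo3 gave 1632 and 1342, 2539 and 3279, and 2484 and 1872. Foxo3 was thus higher on all 4 dKO arrays, and since the deleted exons are not named in the labels, a probe set outside them checks nothing. The 8 granulosa markers include Foxl2 and Inha. Summed intensities were 94553 and 104574 in wild type, 115769 and 106686 in the dKO at day 25 and 112084 and 103293 at 2 months. Bright genes such as Inha weigh most in these sums. At 2 months 7 of the 8 had higher means than wild type and 1 lower. Foxl2 gave 13167 and 8826 there against 6165 and 6783 in wild type, and Fst 4491 and 5571 against 9065 and 9779. The dKO 2-month replicate 1 array stood apart, with correlations of 0.964 to 0.979 (Pearson, across probe sets) with the other 5 arrays, and 1475 genes differed by more than 2-fold between the 2 replicates of that group, against 426 in wild type and 345 in the dKO at day 25.

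**Figure D1:**
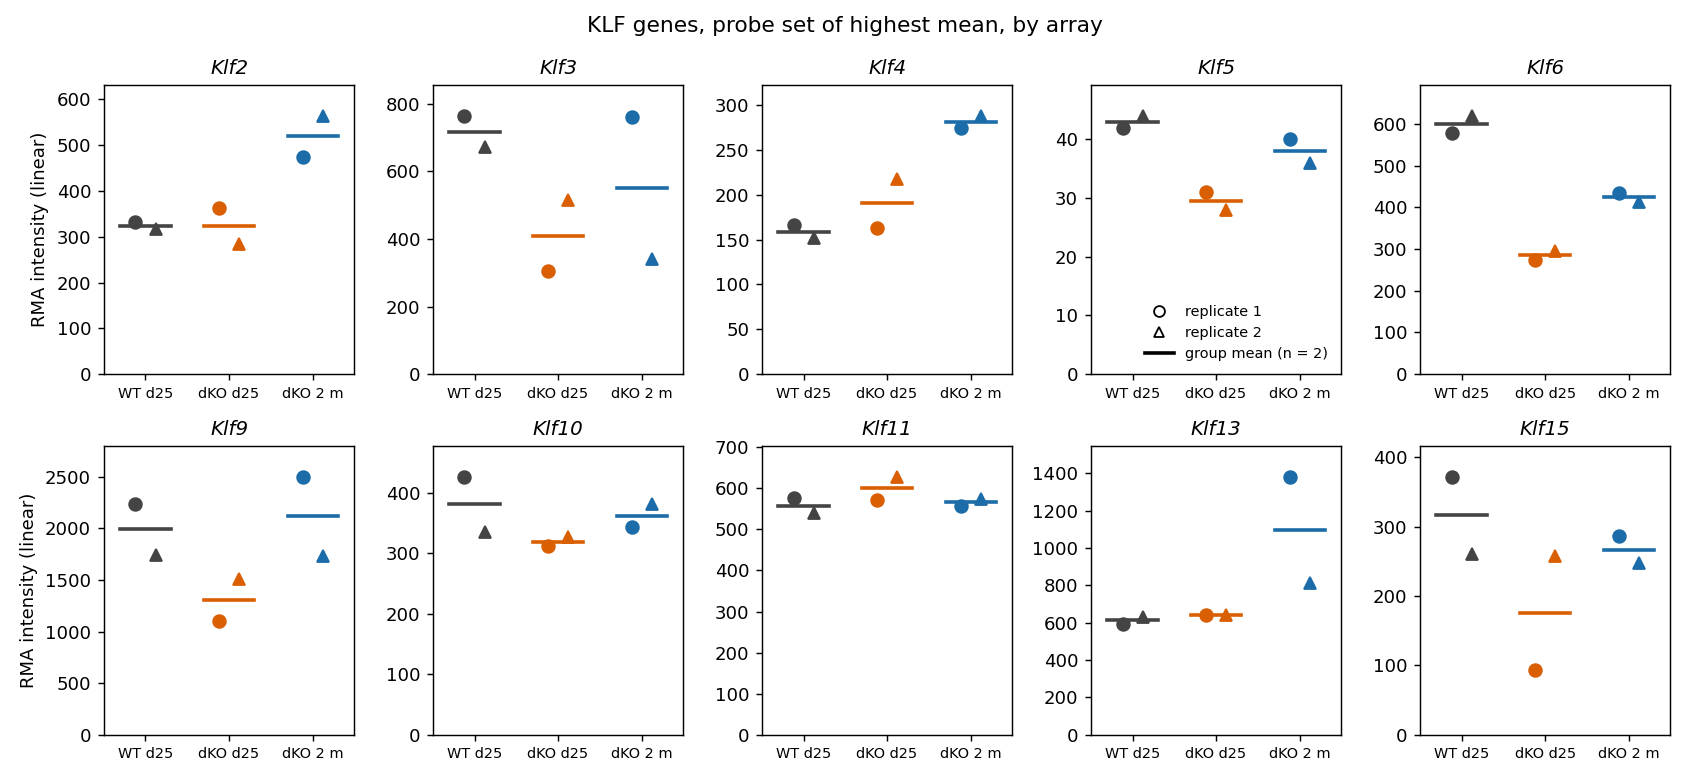
Intensity (linear scale, y axis starting at 0) of the 10 KLF genes on their brightest probe set, with a circle for replicate 1, a triangle for replicate 2 and a bar for the mean of each group of 2 arrays. Klf6 shows 3 separate levels, at 579 and 619 in wild type, 273 and 296 in the dKO at day 25 and 435 and 413 at 2 months, while Klf2 and Klf4 are highest in the dKO at 2 months.

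At day 25 the 2 genotypes were compared at equal age. The 10 KLF genes examined, which were chosen with earlier results of these data known, were mostly lower in the dKO. A lower mean log2 value was found in 7 of 10, where 43.9% of all genes had one. The median log2 difference was -0.39, against 0.03 over all genes. Leaving out dKO day 25 replicate 1 gave a median of -0.24, and leaving out wild-type replicate 1 gave -0.25. For 6 of 10 (Klf3, Klf5, Klf6, Klf9, Klf10 and Klf15) both dKO arrays lay below both wild-type arrays, a pattern found in 19.5% of all genes. For 1, Klf13, both dKO arrays lay above, where 26.4% of genes did so. By limma, 2 members, Klf5 and Klf6, were lower at an unadjusted p under 0.05, where 3.44% of genes were, and 0 were higher, where 4.89% were. No member passed an adjusted p of 0.05, where 0.00% of all probe sets passed, and the adjusted p of the members ran from 0.367 to 1. With 2 arrays against 2, an exact permutation test reaches no p below 0.333. In RNA from many cells, fewer cells of a type and less RNA per cell cannot be told apart.

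Klf6, a zinc finger activator of growth arrest genes such as Cdkn1a, had the smallest p among the members. Its intensity was 599 ± 28.3 (SD, n = 2) in wild type and 284.5 ± 16.3 in the dKO at day 25, a 2.10-fold difference with a log2 value of -1.07 ± 0.10 (SE) and adjusted p = 0.367. The other probe sets of Klf6 ran the same way. The second brightest gave 333 and 449 in wild type, 148 and 144 in the dKO at day 25 and 257 and 231 at 2 months. A further one, which may also detect related transcripts, gave 316 and 362, then 125 and 166, then 254 and 235. On these 2 the day 25 groups were 2.64-fold and 2.34-fold apart. The fourth gave 98 and 99, then 33 and 33, then 69 and 39, which is a 2.93-fold difference at day 25 and a wide gap between the 2-month replicates. The dimmest gave 27 and 22, then 17 and 15, then 19 and 23. Thus 5 of 5 Klf6 probe sets were lower in the dKO at day 25 without overlap, as 21.5% of all probe sets were, and with an unadjusted p under 0.05, as 4.79% were. These probe sets share the arrays and the gene and are not separate evidence.

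Klf6 was also lower in the dKO at 2 months than in wild type, by less than at day 25. The 2-month level was 424 ± 15.6, which gave a log2 difference from wild type of -0.50 ± 0.10 (SE) with adjusted p = 0.241, and from the dKO at day 25 of 0.57 ± 0.10 with adjusted p = 0.712. The levels therefore ran wild type, dKO at 2 months, dKO at day 25, from high to low, with no neighbours overlapping. Among the 10 members Klf5 had the same order, and 0.775% of all genes had it. Leaving out any 1 array kept the Klf6 log2 difference between -1.13 and -1.01 at day 25 and between -0.55 and -0.45 at 2 months. The genes whose pattern over the 6 arrays was most like that of Klf6, among 11075 others with a mean intensity of at least 100, were Ro60 (Pearson r = 0.995) and 2700081O15Rik (r = 0.993), and 21 genes had r over 0.95, as a description of arrays that fall into 3 groups.

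**Figure D2:**
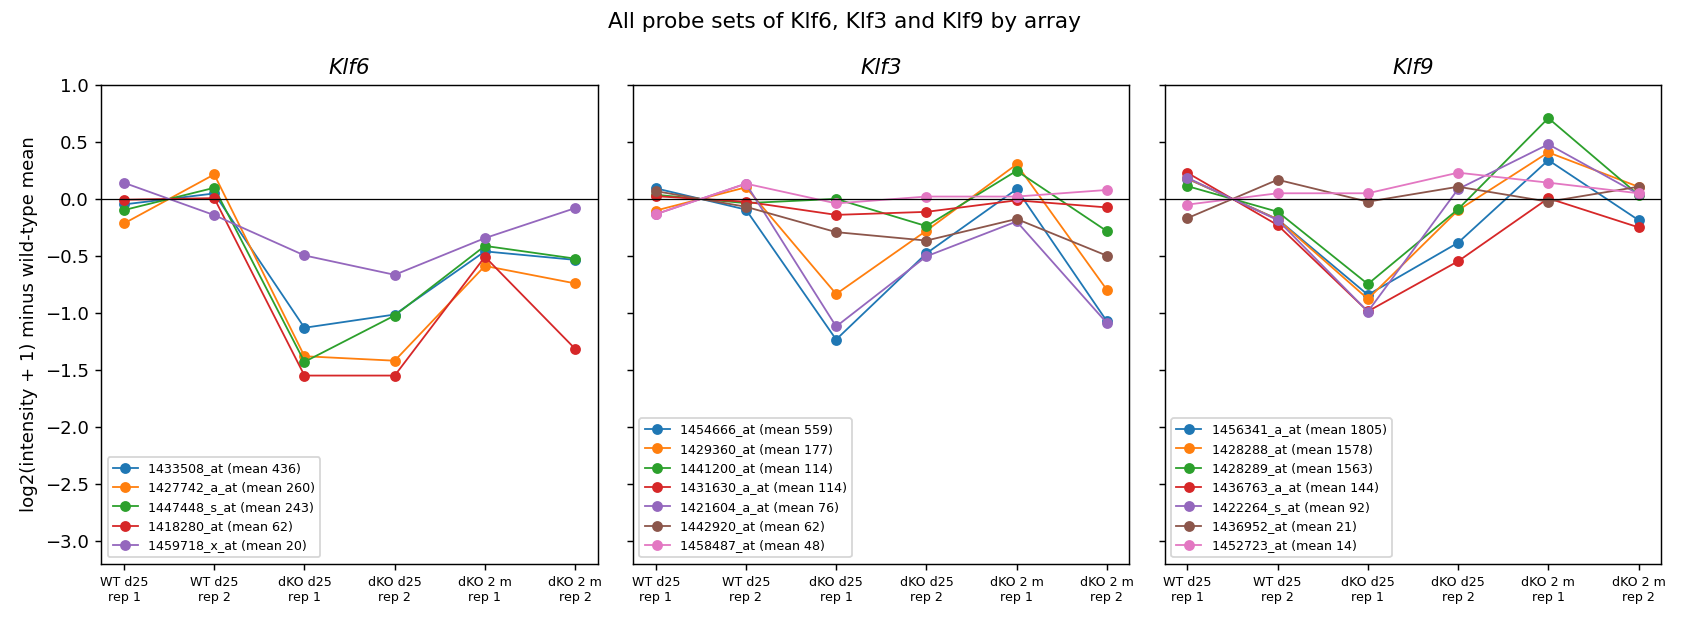
Each probe set of Klf6, Klf3 and Klf9 on each array, as log2 of intensity plus 1 minus the mean of the 2 wild-type arrays (y axis); lines only join the points of 1 probe set, and the legend gives its mean intensity. All 5 Klf6 probe sets lie below the wild-type mean on all 4 dKO arrays, whereas the brightest Klf3 probe set is low on 3 dKO arrays and at the wild-type level on dKO 2-month replicate 1.

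Klf5, a factor known from dividing epithelial cells, was dim here and its values carry little weight. Its brightest probe set gave 42 and 44 in wild type, 31 and 28 in the dKO at day 25 and 40 and 36 at 2 months, all below the array medians of 73 to 74. At day 25 it was lower with a log2 value of -0.53 ± 0.11 (SE), with adjusted p = 0.474. Its other 2 probe sets did not separate the day 25 groups, with 23 and 26 against 23 and 24 on one and 11 and 13 against 12 and 12 on the other.

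Klf2 and Klf4, activators best known for the quiescent state of endothelium and, for Klf4, for pluripotency and epithelial barriers, did not separate the genotypes at day 25. Klf2 gave 333 and 316 in wild type, 362 and 284 in the dKO at day 25 and 475 and 564 at 2 months. The 2-month arrays lay above the other 4, while the wild-type values fell between those of the dKO at day 25. Klf4 gave 166 and 152 in wild type, 163 and 218 in the dKO at day 25 and 275 and 288 at 2 months. Its second probe set gave 115 and 122, then 111 and 148, then 216 and 200. On both Klf4 probe sets the 2-month dKO was highest and the day 25 groups overlapped. Day 25 log2 differences between genotypes were -0.02 ± 0.16 (SE) for Klf2 and 0.25 ± 0.17 for Klf4.

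The repressor Klf3 was lower in the dKO at day 25, with a wide spread. Its brightest probe set gave 764 and 671 in wild type, 304 and 514 in the dKO at day 25 and 760 and 340 at 2 months. At day 25 the groups did not overlap, at a log2 value of -0.86 ± 0.46 (SE) with adjusted p = 0.678. The Klf3 value was -0.48 without dKO day 25 replicate 1 and -0.40 with its probe sets averaged. At 2 months replicate 1 was at the wild-type level and replicate 2 below it, so that the group gives no single level. The second brightest Klf3 probe set split in the same manner, with 190 and 219, then 114 and 168, then 252 and 117. Of 7 Klf3 probe sets, 7 had a lower mean log2 value in the dKO at day 25. Without overlap 5 were lower, where 21.5% of all probe sets were. An unadjusted p under 0.05 was found for 0, where 4.79% of all probe sets were lower at that level.

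Among the Sin3-binding members, Klf9, a partner of the progesterone receptor in the uterus, was lower in the dKO at day 25 than in wild type and higher again at 2 months. It gave 2233 and 1746 in wild type, 1102 and 1513 in the dKO at day 25 and 2500 and 1736 at 2 months. The day 25 groups did not overlap, and the 2-month values spanned those of wild type. At day 25 the Klf9 value against wild type was -0.61 ± 0.27 (SE) on the log2 scale, adjusted p = 0.642, and was -0.38 without dKO day 25 replicate 1 and -0.36 with its probe sets averaged. The next 2 probe sets by intensity gave 1819 and 1418 against 874 and 1499 and 1635 and 1399 against 901 and 1421, and overlapped at day 25, since the second dKO array lay within the wild-type range. Of 7 Klf9 probe sets 2 were lower in the dKO at day 25 without overlap, where 21.5% of all probe sets were. Another 2 were dim, with no array above 23, and flat.

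Klf10 and Klf11, which are induced by TGF-beta, and Klf13 differed little at day 25. Klf10 gave 427 and 336 in wild type, 312 and 327 in the dKO at day 25 and 343 and 382 at 2 months. The difference at day 25, -0.25 ± 0.15 (SE) on the log2 scale, was of the order of the gap between the wild-type arrays. Klf11 gave 576 and 539, then 572 and 628, then 557 and 574, and overlapped between all groups. Klf13 gave 593 and 633 in wild type, 642 and 640 in the dKO at day 25 and 1381 and 814 at 2 months. Its separation at day 25 was small, with a log2 difference of 0.07 ± 0.26 (SE).

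Klf15, a glucocorticoid-induced regulator of amino acid and glucose metabolism in liver and muscle, gave 372 and 261 in wild type, 93 and 258 in the dKO at day 25 and 286 and 247 at 2 months. The day 25 groups were apart by 3 units only, since the second dKO array lay next to the lower wild-type array. The mean log2 value against wild type was -1.0 ± 0.51 (SE), adjusted p = 0.665, and it was -0.27 without dKO day 25 replicate 1 and -1.73 without replicate 2 of that group. On dKO day 25 replicate 1 Klf3 and Klf9 also had their lowest values, and 5 of 10 members were lowest there.

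**Figure D3:**
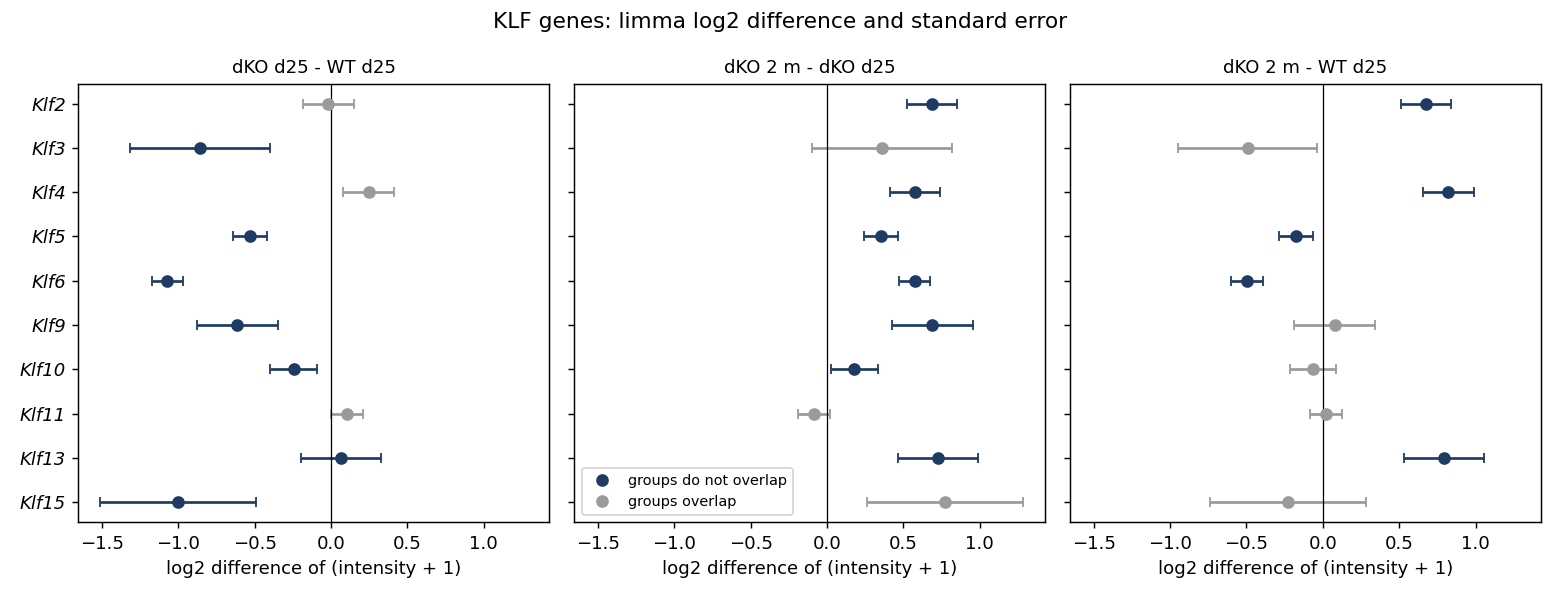
Limma log2 difference (point) and standard error (bar) of intensity plus 1 for the 10 KLF genes in the 3 comparisons; dark points mark groups of 2 arrays that do not overlap. At day 25 Klf6 is at -1.07 with a short bar and Klf3 and Klf15 have long ones, and 9 of 10 points lie above 0 for the dKO at 2 months against day 25.

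Within the dKO genotype, cells of 2 months were compared with cells of day 25. The same chosen KLF genes were mostly higher at 2 months, with 9 of 10 higher and 1 lower in mean, where 46.2% of all genes were lower. The median log2 difference was 0.58, against 0.02 over all genes. For 7 of 10 (Klf2, Klf4, Klf5, Klf6, Klf9, Klf10 and Klf13) the 2-month arrays lay above the day 25 arrays, where 19.7% of all genes did so, and for 0 below, where 17.0% did. By limma 5 were higher at an unadjusted p under 0.05 (Klf2, Klf4, Klf5, Klf6 and Klf13), where 3.73% of genes were, and 0 were lower, where 2.91% were. No member passed an adjusted p of 0.05, where 0.00% of all probe sets passed, and the members had adjusted p from 0.712 to 0.831. Leaving out an array cannot make separated groups overlap, so the count of 7 could not fall. Without dKO 2-month replicate 1 the median was 0.39. Without dKO day 25 replicate 1 the median was 0.40. This comparison and the one at day 25 share the dKO day 25 arrays, so low values there enter both.

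Klf2 and Klf4 were higher at 2 months than at day 25 in the dKO. The Klf2 level was 519.5 ± 62.9 (SD, n = 2) against 323 ± 55.2, a log2 difference of 0.69 ± 0.16 (SE) with adjusted p = 0.712. The Klf4 level was 281.5 ± 9.19 against 190.5 ± 38.9, a log2 difference of 0.58 ± 0.17, and its second probe set gave 0.69 ± 0.16, both with adjusted p = 0.712. Klf4 had 0.37 without dKO day 25 replicate 1 and 0.78 without replicate 2, and Klf2 had 0.86 and 0.51. Klf13, known from lymphocytes and heart muscle, was 1097.5 ± 401 against 641 ± 1.41, and its second probe set gave 521 and 440 against 335 and 364. The Klf13 log2 difference of 0.73 ± 0.26 (SE) was 0.34 without dKO 2-month replicate 1 and 1.11 without replicate 2. Klf9 had 0.69 ± 0.27, and leaving out replicate 1 of the day 25 group gave 0.46, that of the 2-month group 0.43. The Klf15 value of 0.77 ± 0.51 was 0.04 without dKO day 25 replicate 1, and that of Klf3 was 0.36 ± 0.46 and turned to -0.22 without dKO 2-month replicate 1 and to -0.02 without dKO day 25 replicate 1.

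Set against wild type at day 25, the dKO at 2 months differed in both genotype and age, and the KLF genes were split, with 5 of 10 higher and 5 lower in mean, where 44.2% of all genes were lower. Klf2, Klf4 and Klf13 had both 2-month arrays above both wild-type arrays, 3 of 10 where 26.6% of genes did, and each of these had an unadjusted p under 0.05, where 9.54% of genes had one in that direction. The same 3 lay above both other groups, where 12.4% of all genes did. Klf5 and Klf6 lay below wild type, 2 of 10 where 17.3% of genes did, and Klf6 had an unadjusted p under 0.05, where 5.38% of genes had one. Leaving out an array can add members to these counts of separated genes but cannot remove any, so it does not check them. Klf4 had a log2 difference of 0.82 ± 0.17 (SE) with adjusted p = 0.238, the lowest among the members. Klf2 had 0.67 ± 0.16 with adjusted p = 0.280 and Klf13 0.79 ± 0.26 with adjusted p = 0.350. Without dKO 2-month replicate 1 the Klf13 value was 0.41. Klf9, Klf10, Klf11 and Klf15 overlapped between these groups.

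Markers of other cells differed on the same arrays. All 8 endothelial markers had higher means in the dKO than in wild type at day 25 and higher again at 2 months, and their summed intensities were 649 and 766 in wild type, 817 and 1238 in the dKO at day 25 and 2725 and 1318 at 2 months. Robo4, a receptor of endothelial cells, gave 44 and 50, then 70 and 86, then 192 and 165. The 8 leukocyte markers, which include Lyz2 and Csf1r, summed to 1386 and 2956 in wild type, 7341 and 4107 in the dKO at day 25 and 14183 and 4613 at 2 months. The 8 stromal and smooth muscle markers summed to 9584 and 7639, then 15212 and 19500, then 37877 and 14186. Each of these 3 lists had its highest sum on dKO 2-month replicate 1, the array on which Klf13 and Klf9 also had their highest values. The 8 oocyte markers summed to 25359 and 15342, then 36720 and 53643, then 4690 and 28580, lowest on that array. The 5 measured theca markers summed to 20459 and 22658, then 15332 and 27065, then 40865 and 32402, and the 6 surface epithelium markers to 2471 and 2514, then 2573 and 3084, then 4402 and 3329. No marker was listed at 0, since the lowest value on any array was 6. The part of these cells in the KLF differences was not tested. On their brightest probe sets Klf2 and Klf4 were higher on dKO 2-month replicate 2 than on replicate 1, while the second Klf4 probe set was higher on replicate 1. Without replicate 1 the log2 differences from wild type were 0.80 for Klf2 and 0.85 for Klf4. Replicate 2 also had endothelial and leukocyte sums, 1318 and 4613, above those of both wild-type arrays. Leaving out replicate 1 therefore does not test the part of these cells.

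**Figure D4:**
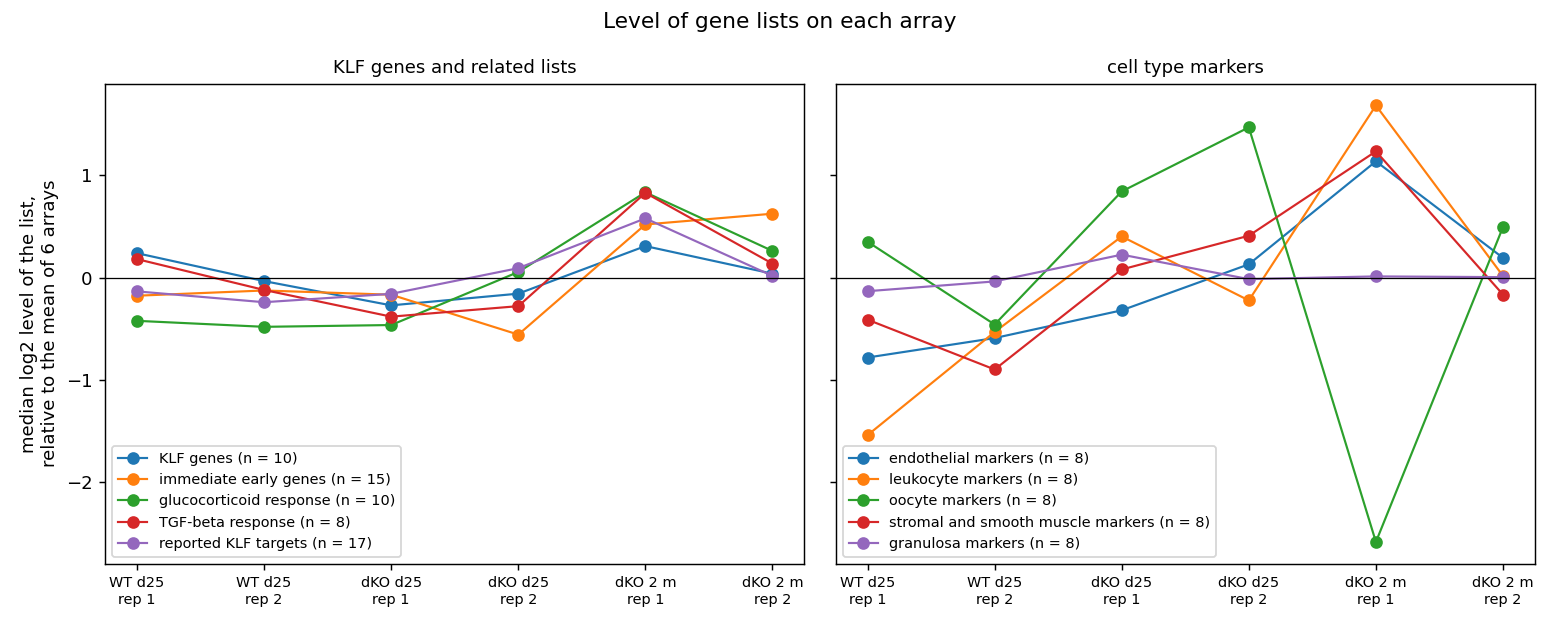
Median log2 level of each gene list on each array relative to the mean of the 6 arrays (y axis), for the KLF genes and related lists on the left and markers of cell types on the right; lines only join the points of 1 list. Immediate early genes are high on both 2-month arrays (0.52 and 0.63). Leukocyte markers are at 1.68 on 2-month replicate 1 and 0.017 on replicate 2, against -1.54 and -0.53 in wild type.

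Other genes around the KLF family were read from lists chosen with earlier results of these data known. Of 16 other KLF and SP factors 13 were measured, and few differed. Called genes are those with an unadjusted p under 0.05, which over all genes were 4.89% higher and 3.44% lower at day 25, 3.73% and 2.91% between the dKO ages, and 9.54% and 5.38% for the dKO at 2 months against wild type. Of the 13 measured factors 1 was called lower and 0 higher at day 25, with a median log2 difference of 0.07, and between the dKO ages 1 was higher and 0 lower, with a median of 0.08. Sp4, a factor of neurons among other cells, gave 136 and 103 in wild type, 82 and 87 in the dKO at day 25 and 87 and 89 at 2 months. Sp6, known from teeth and skin, gave 70 and 82, then 80 and 79, then 101 and 96. Klf17, a germ cell member of the family chosen here after its values were seen, gave 2586 and 954, then 2328 and 3905, then 823 and 2319. Its lowest value fell on the array where the oocyte markers were lowest and its highest where they were highest. The other measured KLF genes ran in both directions. At day 25 the log2 difference was -0.33 for Klf1 and -0.12 for Klf7. It was 0.47 for Klf12, 0.07 for Klf14, 0.21 for Klf16 and 0.94 for Klf17. Between the dKO ages Klf1 (0.20), Klf7 (0.24) and Klf12 (0.53) were higher. Klf14 (-0.01), Klf16 (-0.33) and Klf17 (-1.13) were lower.

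Of 16 regulators and partners of KLF factors 1 was called higher and 0 lower at day 25, and 0 were higher and 2 lower between the dKO ages. Sin3a, the corepressor of the Klf9 group, gave 974 and 805 in wild type, 1204 and 1427 in the dKO at day 25 and 707 and 995 at 2 months. Ctbp2, a corepressor of Klf3, gave 2880 and 2922, then 3616 and 3728, then 2310 and 2852. Both were highest in the dKO at day 25. Fbxw7, part of a ubiquitin ligase that degrades KLF proteins, gave 389 and 438, then 416 and 455, then 597 and 485. The kinase Mapk7, which acts upstream of Klf2 through MEF2 factors, gave 320 and 357, then 301 and 304, then 353 and 273, and overlapped between the dKO ages (chosen after its values were seen).

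Of 18 reported KLF targets 17 were measured. At day 25 they had 1 called higher and 0 lower, between the dKO ages 1 and 0, and between the dKO at 2 months and wild type 5 and 0, with medians of 0.19, 0.32 and 0.54. The pairs of counts at day 25 and between the dKO ages lay near the shares over all genes. The level of this list at 2 months differed between the replicates: relative to the mean of the 6 arrays its median was 0.58 on replicate 1, where 12 of 17 genes were highest, and 0.017 on replicate 2, where 0 were, against 0.093 on dKO day 25 replicate 2. Nos3, the endothelial nitric oxide synthase that Klf2 activates, gave 79 and 80 in wild type, 96 and 121 in the dKO at day 25 and 136 and 116 at 2 months. Acvrl1 and Eng, endothelial receptors of the TGF-beta family reported as Klf6 targets, were lowest in wild type, where Klf6 was highest. Acvrl1 gave 29 and 44, then 90 and 92, then 403 and 117, and Eng gave 148 and 187, then 199 and 246, then 417 and 266. Of the 17 measured genes of the list, 10 had higher and 7 lower means in the dKO at day 25. Tgfbr2 gave 482 and 427, then 571 and 757, then 1179 and 639, and was higher in the dKO at day 25, unlike Klf6. Tgfbr1, another gene of the list, named outside the rule used for the lists, gave 4584 and 4411, then 2827 and 3553, then 6172 and 3185. Tgfbr1 was lower in the dKO at day 25, as Klf6 was, with an unadjusted p of 0.196 by limma. Several genes of this list are expressed in endothelium, whose markers were higher on the same arrays.

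Lists of genes that respond to known inducers of KLF genes were compared between the dKO ages. Of 15 immediate early genes 9 were called higher and 0 lower, where 3.73% and 2.91% of all genes were, with a median log2 difference of 0.98, and 0 were higher and 1 lower at day 25. Junb, an AP-1 factor, gave 79 and 109 in wild type, 90 and 79 in the dKO at day 25 and 243 and 253 at 2 months, and Ier2 gave 440 and 527, then 417 and 337, then 786 and 1054. Jun gave 1077 and 1574, then 650 and 422, then 2098 and 1865. It was the gene of the list called lower in the dKO at day 25. In mean, 11 of the 15 were lower there and 4 were higher. Myc gave 1425 and 1102, then 547 and 711, then 235 and 488, below wild type in the dKO at both ages without overlap. Of 10 genes of the glucocorticoid response 2 were higher and 0 lower between the dKO ages, with a median of 0.58, and 2 were higher and 1 lower at day 25, with a median of 0.11. The kinase Sgk1 gave 1415 and 1204, then 339 and 476, then 709 and 454. It was the gene of this list called lower at day 25. The phosphatase Dusp1 gave 327 and 270, then 503 and 763, then 586 and 729, and the glucocorticoid receptor Nr3c1 gave 181 and 272, then 566 and 343, then 752 and 504, both higher in the dKO at day 25. The list thus held changes in both directions between genotypes. Zbtb16, a glucocorticoid-induced repressor, gave 91 and 76, then 63 and 119, then 267 and 221, and Cebpd gave 116 and 109, then 84 and 184, then 346 and 229. Of 8 measured TGF-beta response genes 3 were higher and 0 lower between the dKO ages, with a median of 0.66, and 0 were higher and 1 lower at day 25, with a median of -0.55. At 2 months both lists were higher on replicate 1 than on replicate 2. Relative to the mean of the 6 arrays the glucocorticoid median was 0.83 and 0.26, with 7 of 10 genes highest on replicate 1, and the TGF-beta median was 0.83 and 0.14, with 6 of 8 highest there. That array also had the highest endothelial, leukocyte and stromal sums, whose part in these lists was not tested. Id3, an inhibitor of basic helix-loop-helix factors, gave 3809 and 2870, then 1892 and 2356, then 3452 and 3707, low in the dKO at day 25 as Klf6 and Klf9 were. No member of any of these lists passed an adjusted p of 0.05 in limma.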

How the data were processed

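Intensity values per probe set were deposited by the authors on a linear scale as whole numbers, and the submitters' processing notes name affy and RMA; versions, the genome build and how log2 values were turned back and rounded are not given in the sources used here. RMA gives every array nearly the same distribution and would hide a shift shared by most genes. Of 45101 probe sets 64 controls were left out. The platform annotation gave 1 symbol for 34945 of the rest, several for 932 and none for 9160, and only the first kind was named. A gene was represented by its probe set of highest mean. Values were analysed as log2(intensity + 1) in R 4.3.3 with limma 3.58.1, in a single fit of 6 arrays with a mean per group and 3 residual degrees of freedom, with two-sided contrasts and Benjamini-Hochberg adjustment over 45037 probe sets at a threshold of 0.05. A fold on this scale understates changes of dim genes. The script was tested on simulated data. The number of arrays limits the precision. Genes of the lists were named where the unadjusted p was under 0.05 and groups did not overlap, up to 4 per list and comparison. Not all are printed, and Klf17, Mapk7 and Tgfbr1 were named outside this rule. The members and lists were chosen with earlier results of these data known. Alternatives were a pseudocount of 16, a minimum mean intensity of 64, array centring, repeated quantile normalization, another variance prior, fits of 4 arrays, means over probe sets, a replicate block and leaving out each array; a crossed block and counts of separated members without each array were added after seeing the data.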

Additional observations from a re-analysis of the deposited data

How the results depend on the processing

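By limma, under each alternative run and in each comparison, 0 probe sets had an adjusted p under 0.05. Members with an unadjusted p under 0.05 numbered 2 at day 25, 5 between the dKO ages and 4 for the dKO at 2 months against wild type. At day 25 the count was 1 with dim probe sets left out, which removes Klf5, 1 with probe sets of a gene averaged, and 2 to 3 with an array left out. Between the dKO ages it was 3 to 5 with an array left out (3 without dKO 2-month replicate 1), and against wild type 2 to 4 (2 without wild-type replicate 2). A group left with 1 array takes its spread from the other groups. Between the dKO ages the count was 6 with array centring, with repeated quantile normalization and with another variance prior. It was 4 with fits of 4 arrays and with probe sets of a gene averaged. Against wild type the count was 3 with fits of 4 arrays. With a replicate block the counts were 2, 4 and 4. The labels do not say that replicate numbers pair samples, and deviations of same-numbered arrays correlated at -0.149, 0.0139 and -0.271 in the 3 comparisons; the crossed pairing of the dKO day 25 arrays gave 5 members at day 25, and that of the 2-month arrays 4 against wild type. The sign turned in 13 of 477 recomputed log2 differences, 12 of them with an array left out, and the cause was not tested. Several alternatives, such as another variance prior or a block, leave the log2 difference itself as it was. Part of the 477 could therefore not turn. With its probe sets averaged Klf5 was 0.032 against wild type at 2 months. With an array left out, Klf2 at day 25 lay between -0.19 and 0.16, Klf3 between the dKO ages between -0.22 and 0.94, and, for the dKO at 2 months against wild type, Klf3 between -1.07 and 0.086, Klf9 between -0.19 and 0.34, Klf10 between -0.24 and 0.11, Klf11 between -0.027 and 0.069 and Klf15 between -0.48 and 0.026.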
